A study of Mus musculus with 4 samples.

Results

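Neutrophils from 4 mouse melanomas were examined as the cells that the authors' cell annotation names Neutro, which were 521 of 33368 CD45+ immune cells. The NTT sample gave 106 of its 8266 cells, RTT gave 146 of 7970, RTT_ROSA26 gave 146 of 6836 and RTT_PTGS12KO gave 123 of 10296. Counts of unique molecular identifiers (UMIs) were taken for these cells from the deposited single-cell matrix and summed per sample.

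All tumours were grown from YUMM1.7 melanoma cells, a mouse line with mutant Braf, which expressed ovalbumin (OVA). The hosts were Rag2-/- mice, which make no T or B cells of their own. Each tumour-bearing mouse received OT-1 T cells, CD8+ cells that recognise ovalbumin, on day 7, and live CD45+ cells were sorted on day 10, 72 h after the transfer. NTT cells were naive to targeted therapy, and RTT cells had been made resistant to a BRAF inhibitor. RTT_ROSA26 and RTT_PTGS12KO were made from the resistant cells, the former with a control guide against the Rosa26 locus and the latter with the genes of both cyclooxygenases, Ptgs1 and Ptgs2, knocked out. Both knockouts were in the cancer cells only, so the Ptgs1 and Ptgs2 RNA of sorted immune cells does not check that label. The labels name a single cell line per group, and they give 1 tumour per condition, whereas the legends of the study speak of pooled tumours for such experiments, and this was not settled. No mouse age was given in the labels.

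Each group therefore had 1 sample, and no test between groups was possible. The differences are given as values, and the intervals are exact 95% intervals that cover counting error only, not the spread between tumours. The comparisons were NTT against RTT and RTT_PTGS12KO (the knockout) against RTT_ROSA26 (its control). Another served as a yardstick, that of RTT_ROSA26 with RTT, which are both resistant and both keep the cyclooxygenase genes. Values in a row without sample names follow the order NTT, RTT, RTT_ROSA26, knockout. NTT against RTT and RTT_ROSA26 against RTT share the RTT sample, and the knockout comparison shares RTT_ROSA26 with the yardstick.

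Neutrophils are short-lived granulocytes that are made in the bone marrow and recruited into inflamed tissue through chemokine receptors such as CXCR2. In tumours they release chemokines and IL-1 family cytokines, and interferons change their programme. Type I interferons act through the ISRE element, and interferon gamma (type II) acts through the GAS element and, by way of IRF1, through ISRE-like elements. Cyclooxygenases make prostaglandin E2, which raises cAMP in cells that carry the receptors EP2 (Ptger2) and EP4 (Ptger4).

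The promoters of genes whose neutrophil levels are described below are shown because they carry the short letter patterns of these factors. Each is the 250 bases before the transcription start of the RefSeq annotation on GRCm38.p6, written 5′ to 3′ on the strand of the gene, with the matches in capitals. The letters searched on both strands were TTTC and TTTC parted by any 2 bases (ISRE), TTCNNNGAA (GAS), TGACGTCA (CRE, the cAMP response element), TTGCGCAA (C/EBP) and GGGA and TTCC parted by any 2 bases (NF-kB). Of 27025 promoters of the same length, 3.04% held the ISRE letters, 7.18% the GAS letters, 1.62% CRE, 0.170% C/EBP and 1.17% NF-kB. Gbp2, a guanylate-binding protein of the antimicrobial interferon response, lies on the plus strand at chr3:142620413-142620662 and its ISRE match starts 59 bases before the start. Igtp, an immunity-related GTPase, lies on the plus strand at chr11:58199306-58199555 with an ISRE match at 34 bases and a GAS match at 45 bases, just upstream of it. Irf1, the interferon-induced transcription factor, lies on the plus strand at chr11:53769764-53770013 with a GAS match at 90 bases. Cxcl10, a chemokine that attracts CXCR3+ T cells, lies on the minus strand at chr5:92348890-92349139 with an ISRE match at 213 bases and an NF-kB match at 159 bases. Isg15, a ubiquitin-like protein of the type I response, lies on the minus strand at chr4:156200819-156201068 with 3 overlapping ISRE matches from 78 bases. Ptgs2, the inducible cyclooxygenase, lies on the plus strand at chr1:150099781-150100030 with a C/EBP match at 69 bases. Cxcl2, a ligand of CXCR2, lies on the plus strand at chr5:90903649-90903898 with NF-kB letters at 97 bases.
Gbp2: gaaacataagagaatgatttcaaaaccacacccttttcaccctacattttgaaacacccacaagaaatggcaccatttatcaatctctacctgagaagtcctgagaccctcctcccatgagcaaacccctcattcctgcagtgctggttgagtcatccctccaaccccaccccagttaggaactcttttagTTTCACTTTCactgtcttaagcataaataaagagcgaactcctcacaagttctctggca
Igtp: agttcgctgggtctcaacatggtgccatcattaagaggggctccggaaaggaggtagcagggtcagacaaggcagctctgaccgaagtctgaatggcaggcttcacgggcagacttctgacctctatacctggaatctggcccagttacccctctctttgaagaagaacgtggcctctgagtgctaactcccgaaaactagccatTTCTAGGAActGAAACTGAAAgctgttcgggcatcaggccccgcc
Irf1: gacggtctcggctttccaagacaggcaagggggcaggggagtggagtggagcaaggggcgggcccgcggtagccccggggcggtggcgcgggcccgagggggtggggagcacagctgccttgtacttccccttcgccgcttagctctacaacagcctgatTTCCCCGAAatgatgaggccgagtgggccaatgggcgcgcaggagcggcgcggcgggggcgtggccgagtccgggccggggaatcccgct
Cxcl10: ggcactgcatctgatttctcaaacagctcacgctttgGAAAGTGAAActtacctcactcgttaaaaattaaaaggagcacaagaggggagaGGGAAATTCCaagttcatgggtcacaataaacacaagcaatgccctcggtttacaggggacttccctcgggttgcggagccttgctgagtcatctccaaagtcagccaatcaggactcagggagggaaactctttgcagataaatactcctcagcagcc
Isg15: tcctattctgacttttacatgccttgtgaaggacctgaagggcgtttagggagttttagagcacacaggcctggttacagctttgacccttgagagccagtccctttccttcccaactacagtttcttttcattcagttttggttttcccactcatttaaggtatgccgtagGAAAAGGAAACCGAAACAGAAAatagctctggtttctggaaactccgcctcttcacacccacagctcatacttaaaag
Ptgs2: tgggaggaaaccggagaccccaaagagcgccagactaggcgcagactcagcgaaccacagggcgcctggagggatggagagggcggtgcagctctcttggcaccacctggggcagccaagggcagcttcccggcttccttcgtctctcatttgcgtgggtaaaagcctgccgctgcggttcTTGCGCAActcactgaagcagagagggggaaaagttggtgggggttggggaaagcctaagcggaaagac
Cxcl2: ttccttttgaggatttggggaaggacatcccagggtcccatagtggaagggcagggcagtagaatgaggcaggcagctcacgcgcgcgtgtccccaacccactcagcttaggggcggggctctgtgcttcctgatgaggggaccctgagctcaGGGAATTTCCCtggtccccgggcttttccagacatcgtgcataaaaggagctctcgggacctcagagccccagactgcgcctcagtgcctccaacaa
The ISRE letters were in 13 of the 19 type II interferon genes that had a promoter (68.4%) and the GAS letters in 10 (52.6%). Among 25 type I interferon genes, 11 (44.0%) held ISRE letters and 3 (12.0%) GAS letters. None of the 8 neutrophil marker genes held any of the patterns, and Cd274, described below, held none either, which says only that these letters are not in those windows. The NF-kB letters were in 4 of 10 chemokine promoters, those of Cxcl1, Cxcl2, Cxcl3 and Cxcl10. These matches are descriptions and not shown sites of binding.

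The name neutrophil was checked against 8 markers, S100a8 and S100a9 (the calprotectin subunits), Retnlg, G0s2, Stfa2l1, Lcn2 (lipocalin 2), Hdc (histidine decarboxylase) and Cxcr2. Levels are in CPM, the gene's UMIs per 1e6 UMIs of a sample's neutrophils. S100a9 stood at 26430, 27523, 17795 and 23878 CPM, lowest in RTT_ROSA26, and S100a8 at 22326, 22459, 13626 and 16582 CPM. Of all S100a9 UMIs in a sample, the neutrophils, 1.19% to 2.14% of the cells, held between 70.3% and 81.4%. For the other markers the share ranged from 58.2% to 89.1%, except for Lcn2 (41.8% to 75.2%) and Hdc (28.0% to 60.7%). The genes with the largest difference from the other cells were S100a9, S100a8, Retnlg, Cstdc4 and G0s2, at 7.77, 7.38, 7.03, 6.66 and 6.60 on the log2 scale, and because the cells were clustered on these genes this is a description. After thinning every cell to 2000 UMIs, S100a8 was seen in 97.2% to 100% of neutrophils per sample and in 9.81% of 1050 NK cells, which should lack it. The median depths were 9012 UMIs in neutrophils and 9466 in NK cells.

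Primary granule genes were low, while the secondary granule list as a whole was not. The primary granule genes, such as Mpo (myeloperoxidase) and Elane (neutrophil elastase), which are made in bone marrow precursors, summed to 3.44, 7.97, 4.37 and 7.65 CPM. Elane had no UMI in any sample, and Mpo had UMIs in RTT_ROSA26 alone, at 0.437 CPM. The 7 secondary granule genes summed to 5824, 9523, 9078 and 7880 CPM. Among them, Camp and Ngp were low except in RTT, where 1 cell held 455 of the 457 Camp UMIs and 1 cell held 98.3% of the 290 Ngp UMIs. Csf3r, the G-CSF receptor, was present in every sample, at 299, 387, 248 and 280.1 CPM. Siglecf, which has been described in tumour-associated neutrophils of other models, was at most 4.17 CPM.

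The 521 cells were not uniform in the markers. The 8 markers made up 0.133% to 32.6% of a cell's UMIs, with medians of 4.76%, 5.46%, 3.69% and 5.36% per sample. There were 63 annotated neutrophils under 1%, and 54 of the 32847 other cells reached 1%. The cells low in these markers were deeper and held more macrophage RNA, summed over 10 genes such as C1qa, C1qb, C1qc, Apoe, Ms4a7, Adgre1, Mrc1, Pf4 and Fcrls. From the lowest marker bin (under 1%) to the highest (over 20%), the median depth went from 13112 to 5145 UMIs and the median macrophage share from 1.15% to 0.0618%. Across cells of a sample, after thinning, the marker and macrophage sums correlated with a Spearman rho of −0.26, −0.57, −0.59 and −0.46, weakest in NTT, where the points share libraries and both sums come from the same 2000 UMIs. The part of cells captured together in a droplet was not tested, since no doublet caller was run.

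**Figure D1:**
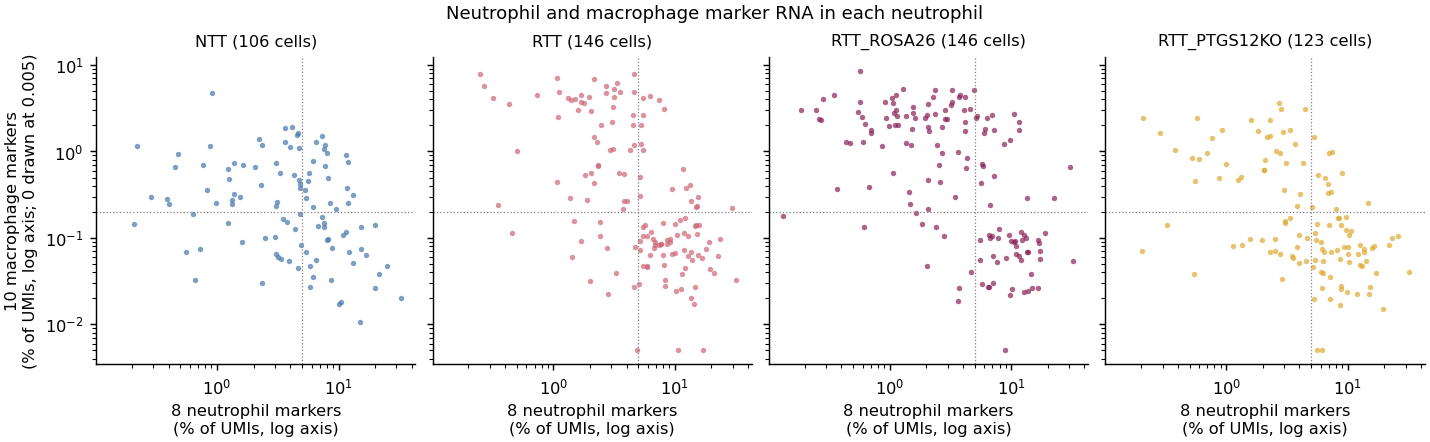
Share of each neutrophil's UMIs in the 8 neutrophil markers against its share in 10 macrophage markers, 1 point per cell and 1 panel per sample, both axes on a log scale in percent, with dotted lines at 5% and 0.2% and cells without macrophage UMIs drawn at 0.005%. The cells spread from marker-rich with little macrophage RNA to marker-poor with more of it, and RTT_ROSA26 has the highest median macrophage share (0.976%).

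The macrophage share differed between samples, and this touches every comparison below. Its median per cell was 0.249%, 0.160%, 0.976% and 0.107%, highest in RTT_ROSA26. Above 0.2% lay 58 of 106 cells for NTT, 71 of 146 for RTT, 94 of 146 for RTT_ROSA26 and 47 of 123 for the knockout. Results are therefore given also for the 251 cells at or below 0.2% and, as a choice made after seeing the data, for the 257 cells with at least 5% of their UMIs in the 8 markers. Monocyte markers summed to 6191, 2456, 1868 and 4260 CPM, high in NTT and the knockout as the interferon genes below are, and their part in those differences was not tested. Markers of further cell types other than red blood cells were low, with summed levels of 110 CPM in NTT and 10 to 35 CPM in the other samples for T and NK cells, 18 to 26 for dendritic cells, 1 to 11 for mast cells and basophils, 13 to 21 for eosinophils and 8 to 27 for melanoma and stroma. The red blood cell genes summed to 6.02, 8.63, 4.37 and 1499 CPM, and the haemoglobin UMIs of the knockout came mainly from 1 cell, as given below.

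Neutrophils were a smaller share of CD45+ cells in NTT than in RTT, and a smaller share in the knockout than in its control. Their share was 1.28% (interval 1.05 to 1.55) for NTT, 1.83% (1.55 to 2.15) for RTT, 2.14% (1.81 to 2.51) for RTT_ROSA26 and 1.19% (0.994 to 1.42) for the knockout. The intervals lie apart for the knockout and its control and meet at their edges for NTT and RTT. On the log2 scale the share in NTT differed from that in RTT by −0.51 (−0.89 to −0.14), and the knockout differed from its control by −0.84 (−1.20 to −0.48). RTT_ROSA26 differed from RTT by 0.22 (−0.12 to 0.56), an interval that holds 0. The knockout was below its control in each of the 3 loads of the chip, where the shares were 1.02%, 1.30% and 1.26% against 2.14%, 1.83% and 2.43%. NTT was below RTT in each load too, at 1.53%, 1.27% and 1.05% against 1.61%, 1.86% and 2.02%.

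Many neutrophils lay near the authors' minimum on genes per cell. No retained cell had fewer than 1001 genes, and 98 of the 521 neutrophils (18.8%) had under 1200, against 1.42% of the other cells. This fringe numbered 11, 37, 22 and 28 cells, so RTT and the knockout had the most cells near the limit. With over 1500 genes and under 10% mitochondrial UMIs required of all cells, the shares were 1.12%, 0.996%, 1.49% and 0.770%, which turned the direction between NTT and RTT and kept the knockout below its control. Among neutrophils with at least 5% marker UMIs the shares were 0.581%, 1.02%, 0.907% and 0.641%. There the intervals of the knockout (0.496 to 0.815) and its control (0.696 to 1.16) overlapped, and RTT_ROSA26 lay below RTT. Those of NTT (0.428 to 0.769) and RTT (0.808 to 1.26) lay apart. A share of sorted cells also moves with the number of other cells, and fewer neutrophils cannot be told apart from more of the rest.

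**Figure D2:**
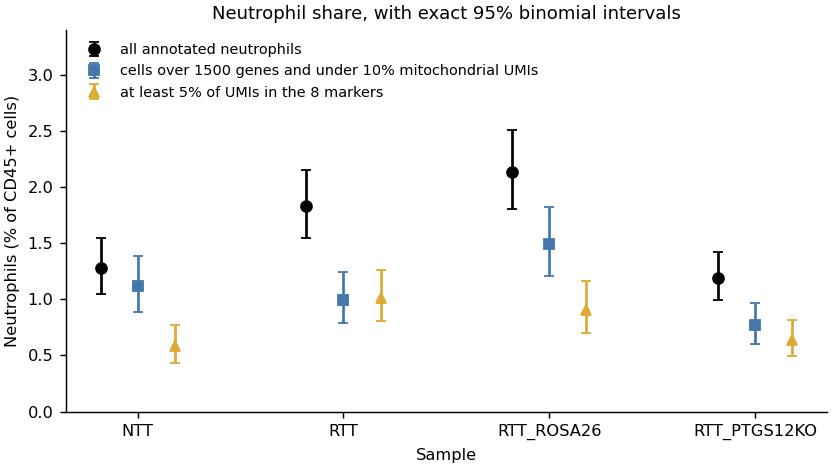
Neutrophils as a percentage of all CD45+ cells in each sample, with bars for exact 95% binomial intervals, for all annotated neutrophils (circles), for cells over 1500 genes and under 10% mitochondrial UMIs (squares) and for neutrophils with at least 5% of UMIs in the 8 markers, over all cells (triangles). Among the circles, NTT (1.28%) and RTT_PTGS12KO (1.19%) lie below RTT (1.83%) and RTT_ROSA26 (2.14%).

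Interferon-induced genes of the neutrophils were high in NTT and RTT_PTGS12KO, lower in RTT and lowest in RTT_ROSA26. Gene differences are on the scale of log2(CPM + 10), over 2380 genes with a mean of at least 50 CPM, and past 2-fold means a difference of at least 1 in either direction. For NTT against RTT, 4.08% of all these genes were past 2-fold higher and 2.98% past 2-fold lower. In all cells the NTT counts were 97 higher and 71 lower of 2380 genes. In cells at or below 0.2% macrophage UMIs they were 320 and 94 of 2092 genes. In the few cells low in macrophage, monocyte and class II UMIs alike, of which NTT had 8, they were 93 and 356 of 1768 genes. For RTT_PTGS12KO against RTT_ROSA26 the shares of the 2380 genes past 2-fold higher and lower were 5.13% and 1.81% (122 and 43 genes). They became 195 and 94 of 2092 genes in cells at or below 0.2%, and 170 and 210 of 1768 in cells low in all 3 kinds of RNA. For RTT_ROSA26 against RTT the shares were 0.924% and 1.72%. The median over all genes was 0.00, −0.07 and 0.10 in the same order, which is the level the lists are set beside.

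Of 17 measured type II interferon genes, 9 were past 2-fold higher in NTT than in RTT, with a median of 1.02. In the knockout 16 were past 2-fold higher than in its control, with a median of 2.18, and none was past 2-fold lower in either. In the cells low in macrophage, monocyte and class II UMIs alike the NTT median was 0.33, where the median of all genes was −0.32. That filter used monocyte and class II RNA, both higher in NTT, and kept 8 of 106 NTT cells and 53 of 146 RTT cells. It therefore cannot decide how far the list differs in cells without such RNA. The same genes had a median of −1.09 in RTT_ROSA26 against RTT, with 10 past 2-fold lower and none higher. The neutrophil markers were lower in that comparison too (median −0.65, none of 8 above 0), and their part in it was not tested. The samples that both keep the cyclooxygenase genes thus differed in the type II list by as much as NTT and RTT did. Against RTT in place of RTT_ROSA26, a comparison added after seeing the data, the knockout had a median of 1.07 for this list, where 2.52% of all genes were past 2-fold higher and 1.34% lower.

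Gbp2 was measured at 784 CPM (734 to 836) for NTT, 608 (569 to 648) for RTT, 139.6 (125 to 156) for RTT_ROSA26 and 1428 (1367 to 1491) for the knockout. No interval overlapped another, and the knockout level was 10.2-fold that of its control (9.09 to 11.5), against 1.29-fold between NTT and RTT. Gbp4, of the same family, stood at 259, 60.4, 23.2 and 243 CPM, with folds of 10.5 for the knockout and 4.28 for NTT, and reads of near-identical Gbp copies may be split between them. Irgm1 and Igtp, GTPases that act on the vacuoles of intracellular pathogens, showed the same order. Irgm1 was at 312, 165, 45.1 and 375 CPM and Igtp at 227, 113, 28.4 and 222 CPM, with NTT and the knockout high and RTT_ROSA26 lowest.

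Regulators of the response had the same order. Irf1 was at 348, 278, 91.0 and 387 CPM, so the step between NTT and RTT was small (1.25-fold) and that between the knockout and its control large (4.26-fold). Socs1, an inhibitor of JAK signalling that interferon gamma induces, was at 90.2, 63.8, 19.2 and 121 CPM. The receptor genes did not share it. Ifngr1 was at 126, 155, 162 and 93.2 CPM and Ifnar1 at 44.7, 47.2, 60.8 and 65.3 CPM, with no member of the 4 receptor genes past 2-fold in any comparison.

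Cd274, a member of the type II list that encodes the checkpoint ligand PD-L1, had the same order of samples. Its level was 744 CPM (696 to 796) for NTT, 363 (333 to 394) for RTT, 143 (128 to 159) for RTT_ROSA26 and 773 (728 to 819.8) for the knockout. The intervals of NTT and the knockout overlap and lie above the other two, and the folds were 2.05 (1.84 to 2.29) for NTT and 5.40 (4.77 to 6.13) for the knockout. In cells thinned to 2000 UMIs, Cd274 was seen in 70.8%, 48.6%, 23.3% and 75.6% of neutrophils, against 13.3% of NK cells. Without thinning these shares were 96.2%, 77.4%, 56.2% and 95.9%. Among 14 measured checkpoint and suppressive genes, Cd274 and Nos2 were past 2-fold higher and 1 gene lower in NTT against RTT, and Cd274 alone was higher in the knockout, with list medians of 0.04 and 0.25.

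**Figure D3:**
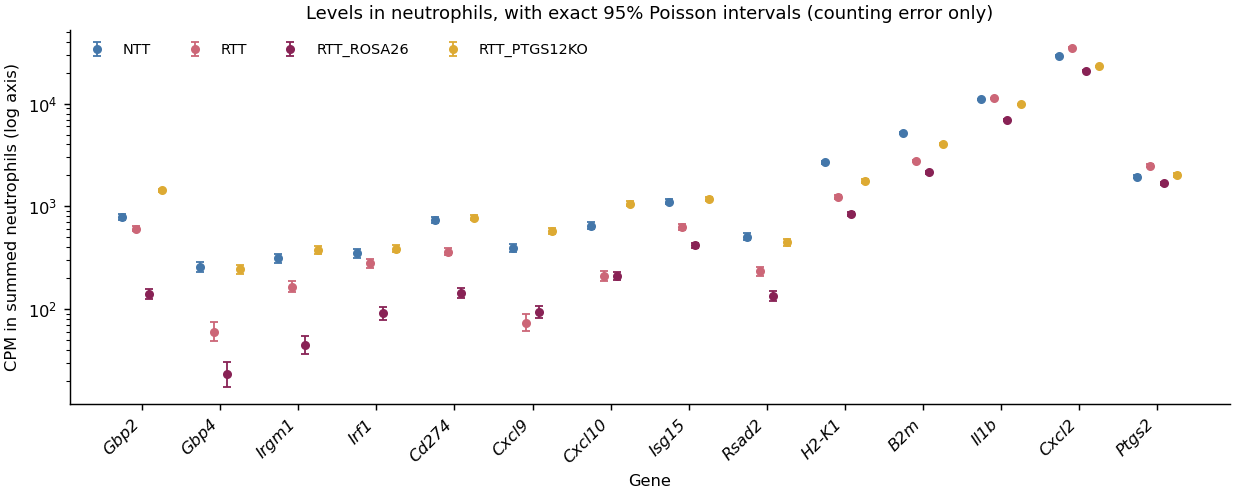
CPM of named genes summed over the neutrophils of each sample, on a log axis, with exact 95% Poisson intervals and colours for the samples. Gbp2, Irgm1 and Cd274 are highest in NTT and RTT_PTGS12KO and lowest in RTT_ROSA26, while Ptgs2 stays between 1676 and 2474 CPM.

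Cxcl9 and Cxcl10, chemokines that draw T cells through CXCR3, were also higher in NTT and the knockout. Cxcl9 was at 394, 73.7, 94.1 and 579.8 CPM, and 52.6% of its RTT_ROSA26 UMIs came from 1 cell. Cxcl10 was at 649.7, 209, 209 and 1062 CPM, so both resistant controls were alike and the knockout was 5.08-fold higher. In thinned cells Cxcl9 was seen in 26.4%, 4.79%, 4.11% and 30.9% of neutrophils and in 5.14% of the 1050 NK cells of all samples. Most of those NK cells came from NTT and the knockout (707 and 306). Cxcl9 was seen in 0 of 12 NK cells in RTT and 0 of 25 in RTT_ROSA26. These are too few to tell whether the neutrophil shares of RTT and RTT_ROSA26 lie above the background.

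Type I interferon genes differed in the same direction, with smaller medians over all neutrophils. Of 21 measured members, 7 were past 2-fold higher in NTT than in RTT (median 0.86) and 16 in the knockout against its control (median 1.32), with none lower. In RTT_ROSA26 against RTT the median was −0.69 with 1 gene past 2-fold lower, and against RTT the knockout had 3 of 21 past 2-fold higher (median 0.66). In the cells with 0.2% or less of macrophage, monocyte and class II UMIs each, the medians for NTT had the other order, 1.11 for type I and 0.33 for type II. Isg15 was at 1107, 628, 417 and 1173 CPM, and Rsad2, the antiviral enzyme viperin, at 507, 233, 134 and 448 CPM. Irf7, the factor that amplifies the type I response, was highest in NTT, at 503, 149, 106 and 193 CPM. Many of these genes respond to both kinds of interferon, and the lists do not separate the ligands.

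Genes of antigen presentation by MHC class I shared that order. Of 14 measured class I and immunoproteasome genes, 10 were past 2-fold higher in NTT than in RTT (median 1.21) and 12 in the knockout against its control (median 1.37). For NTT the median was 0.45 in the cells low in macrophage, monocyte and class II UMIs alike, under the limit given above for that filter. The yardstick median was −0.46 with none past 2-fold, and against RTT the knockout had 5 of 14 past 2-fold higher (median 0.93). H2-K1, a class I heavy chain, was at 2681, 1235, 843 and 1768 CPM, and B2m, the light chain, at 5134, 2771, 2138 and 4030 CPM. Psmb8, an immunoproteasome subunit, was at 873, 342, 283 and 722 CPM and Tap1, the peptide transporter, at 223, 89.0, 55.6 and 209 CPM. H2-Q6 and H2-Q7 were among the 10 genes furthest up in NTT, and as near-identical copies they are uncertain.

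**Figure D4:**
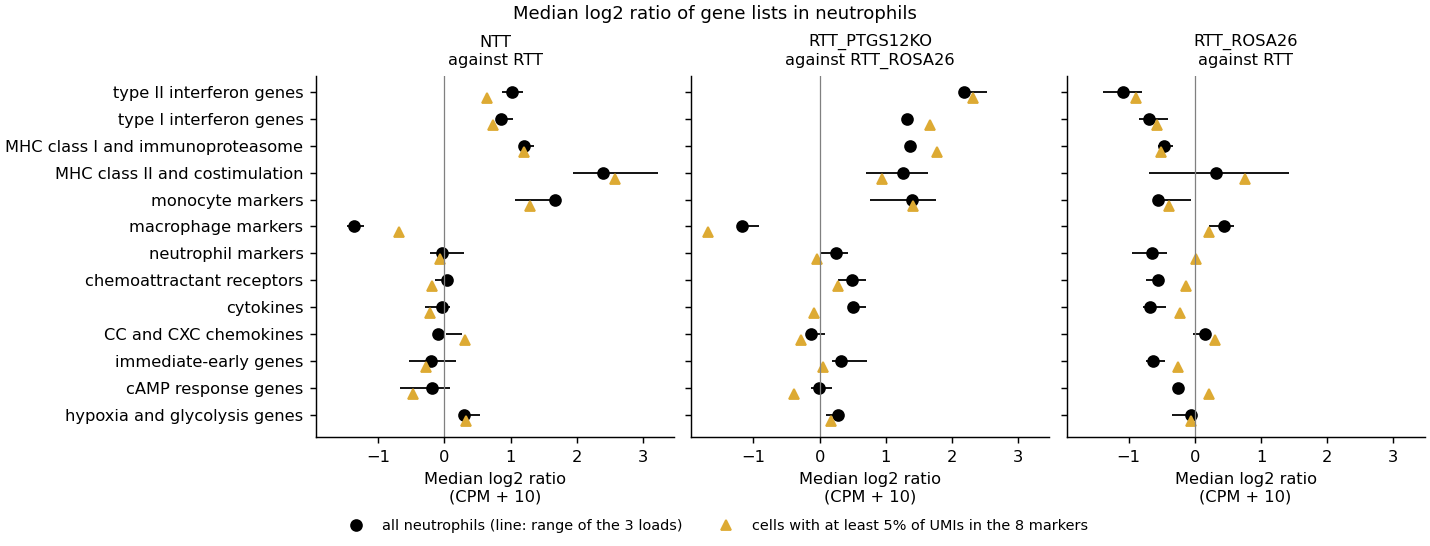
Median log2 difference of each gene list in neutrophils for NTT against RTT, RTT_PTGS12KO against RTT_ROSA26 and RTT_ROSA26 against RTT, on the scale of log2(CPM + 10). Circles are all neutrophils with a line for the range over the 3 loads, and triangles the same genes in cells with at least 5% of UMIs in the 8 markers. The interferon and class I lists lie above 0 in the first and second comparisons and below 0 in the third, and the neutrophil marker list lies at −0.03, 0.25 and −0.65.

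The interferon difference was spread over the cells. The type II genes made up a median of 0.827%, 0.262%, 0.0812% and 0.891% of a cell's UMIs. With a limit of 0.5% set after seeing the data, 85 of 106 cells for NTT (80.2%, 71.3 to 87.3) reached it, and so did 44 of 146 for RTT (30.1%, 22.8 to 38.3), 7 of 146 for RTT_ROSA26 (4.79%, 1.95 to 9.63) and 97 of 123 for the knockout (78.9%, 70.6 to 85.7). In thinned cells the median number of type II UMIs was 16, 5, 2 and 17, so the order of the samples was the same at equal depth. The type I and type II sums of thinned cells correlated across cells with a Spearman rho of 0.28, 0.44, 0.32 and 0.54 in the same order of samples.

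**Figure D5:**
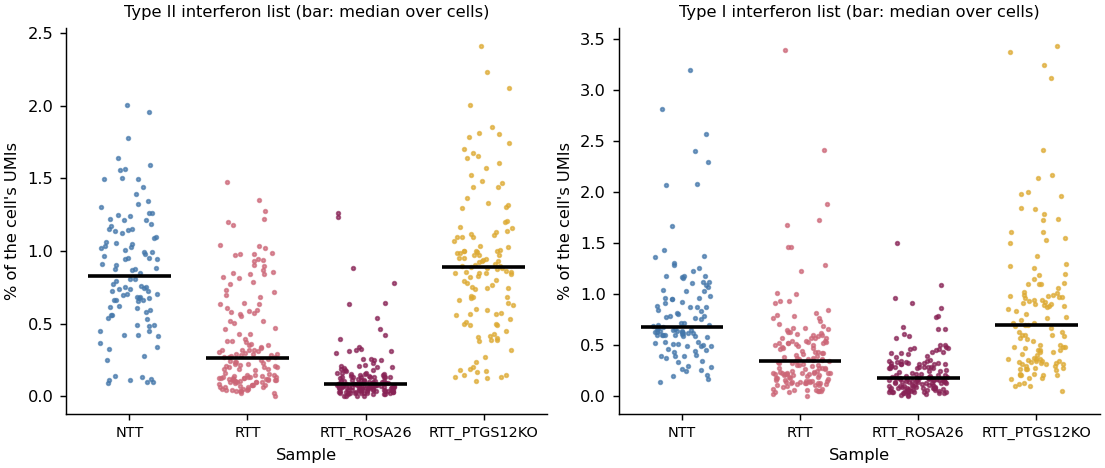
Share of each neutrophil's UMIs, in percent on a linear axis, in the type II (left) and type I (right) interferon genes, 1 point per cell by sample, with a bar at the median. On the left, most cells of NTT and RTT_PTGS12KO lie above 0.5% (80.2% and 78.9%), against 30.1% in RTT and 4.79% in RTT_ROSA26.

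NTT and the knockout were also above RTT and RTT_ROSA26 in cells with little macrophage RNA, with the knockout highest. Among the 251 cells at or below 0.2%, 33 of 48 for NTT, 30 of 75 for RTT, 2 of 52 for RTT_ROSA26 and 70 of 76 for the knockout reached 0.5% type II UMIs. The type II list had medians of 0.79, 2.53 and −1.38 in those cells for NTT, the knockout and the yardstick, and the class I list 1.10, 1.65 and −0.75. Among the 257 marker-rich cells the type II medians were 0.63, 2.22 and −0.91, with 6 and then 16 of 16 genes past 2-fold higher for NTT and the knockout. There 5.25% of all genes were past 2-fold higher for NTT and 7.42% for the knockout. In the cells with 0.2% or less of macrophage, monocyte and class II UMIs each, of which NTT had 8, the type II median was 0.33 for NTT and 2.56 for the knockout. The limit of that filter given above applies here too.

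MHC class II genes were higher in NTT and the knockout as well. H2-Ab1 was at 4033, 486, 787 and 1899 CPM, and H2-Aa at 3896, 501, 694 and 1853 CPM. Of 8 measured class II and costimulation genes, 6 were past 2-fold higher in each comparison, with medians of 2.40 and 1.26. For the knockout the median was −0.05 in the cells at or below 0.2% macrophage RNA, where H2-Ab1 differed by −0.05, whereas for NTT the median was 1.97 there. Monocyte markers had the same order in most members, with 5 of 7 past 2-fold higher in both comparisons (medians 1.67 and 1.40). The other 2 were below 0 in both, among them F13a1, a coagulation factor subunit, at 36.1, 498, 336 and 182 CPM. Ly6c2 was at 1683, 521, 308 and 827 CPM, Plac8 at 2687, 804, 506 and 1894 CPM, and Ly6a, which interferon also induces, at 2130, 361, 297 and 1201 CPM. Their part in the class II levels was not tested.

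Macrophage RNA, summed over the cells, was lower in NTT than in RTT and in the knockout than in its control. Of the 10 macrophage markers, 5 were past 2-fold lower in NTT than in RTT and 6 in the knockout than in its control, with medians of −1.37 and −1.17. Apoe, a lipid carrier of macrophages, was at 1503, 12386, 10981 and 3138 CPM, and Pf4 at 119, 2072, 2277 and 375 CPM. Per cell the median macrophage share was higher in NTT (0.249%) than in RTT (0.160%), while the 75th percentile was lower (0.661% against 1.87%), so the RTT sum came from a smaller set of cells rich in this RNA. The annotated macrophages were scarce in NTT, with 20 TAM_Spp1 cells there and 2057, 1500 and 1267 in the other samples.

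Several products by which neutrophils recruit and activate other cells were abundant. Cxcl2 was the highest of the chemokines measured, at 29375, 35087, 20853 and 23051 CPM, and neutrophils held 12.0% to 19.1% of all Cxcl2 UMIs of a sample. Cxcl3, another CXCR2 ligand, was at 1646, 2022, 1284 and 1106 CPM with 30.6% to 37.7% of the UMIs in neutrophils. Il1b was at 11001, 11272, 6950.4 and 9839 CPM, within 1.42-fold in both comparisons. Il1rn, the antagonist of the IL-1 receptor, was at 884, 857, 555 and 1039 CPM and Tnf at 284, 285, 163 and 211 CPM. All 5 were lowest or next to lowest in RTT_ROSA26, the sample with the most macrophage RNA.

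Over the lists, 14 measured chemokines had medians of −0.10 and −0.13, with 3 genes past 2-fold higher for NTT (Ccl5, Cxcl9 and Cxcl10), 2 for the knockout (Cxcl9 and Cxcl10) and 1 lower in each (Ccl9). Ccl3 and Ccl4, chemokines that attract monocytes and T cells, were at 5092 and 8009 CPM in RTT and 2378 and 3695 CPM in RTT_ROSA26, both past 2-fold lower in the yardstick. In that comparison 2 other chemokines were past 2-fold higher, and the list median was 0.16. Ccl5, a chemokine that T and NK cells also make, was high in NTT alone, at 1399 CPM against 230.4, 315 and 175, as were the summed T and NK markers, whose part in it was not tested. Of 9 measured cytokines 2 were past 2-fold higher in the knockout, Csf1 and Il23a, and none in NTT (medians 0.50 and −0.04). Csf1, the macrophage growth factor, was at 115, 223, 60.8 and 213 CPM, lowest in RTT_ROSA26. Neutrophils held 40.4% and 25.3% of all Csf1 UMIs in NTT and the knockout and 8.53% and 9.89% in RTT and RTT_ROSA26, although the level within neutrophils was highest in RTT. Inhba, a subunit of activin that was named by the size of its difference, was at 199, 61.8, 31.5 and 258 CPM, with NTT and the knockout high.

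Receptors on the neutrophils were mostly level. Cxcr2 was at 224, 379, 221 and 259 CPM, and C5ar1, the receptor of complement C5a, at 347, 464, 413 and 395 CPM. Of 11 chemoattractant receptors none was past 2-fold between NTT and RTT (median 0.03), and 2 were higher in the knockout (median 0.49). Those 2 were Fpr2, a formyl peptide receptor, at 241, 321, 112 and 294 CPM, and Hcar2, a receptor for hydroxy acids, at 334, 326, 112 and 309 CPM. For both genes RTT_ROSA26 stood apart from the other 3 samples, and both were past 2-fold lower there than in RTT.

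The prostaglandin genes of the neutrophils themselves showed little difference. Ptgs2 was at 1947, 2474, 1676 and 2018 CPM, a fold of 0.787 for NTT and 1.20 for the knockout, and was seen in 84.2% to 89.0% of thinned neutrophils against 4.95% of NK cells. Neutrophils held 5.81%, 9.15%, 15.02% and 5.67% of all immune-cell Ptgs2 UMIs. Alox5ap, which feeds leukotriene synthesis, was at 855, 818, 827 and 723 CPM, and Ptges, a terminal synthase of prostaglandin E2, at 1.99 to 2.78 CPM. The receptors Ptger2 and Ptger4 were near the limit, at 4.37 to 13.2 CPM and 7.73 to 13.6 CPM. Of 13 measured cAMP-induced genes 1 was past 2-fold in NTT against RTT and none in the knockout (medians −0.19 and −0.01). The 1 gene was Thbs1, an inhibitor of vessel growth, at 933, 2099, 1705 and 1280.5 CPM.

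Several other lists had smaller medians. The 8 neutrophil markers had medians of −0.03 for NTT and 0.25 for the knockout, the 21 hypoxia and glycolysis genes 0.30 and 0.28, and the 12 NF-kB genes 0.13 and 0.27. The 14 survival genes had medians of 0.06 and 0.31 with Bcl2a1a and Casp1 past 2-fold higher in each comparison, and Mcl1, on which neutrophils depend to live, was at 1470, 1864, 1188 and 1416 CPM. Of the 6 NADPH oxidase genes, which make the respiratory burst, Cybb alone was past 2-fold in NTT, at 640.3, 208, 215 and 435 CPM. The secondary granule list had medians of −1.77 for NTT and −2.12 in the yardstick, and in both Camp, Ngp and Chil3 were the members past 2-fold lower, the former pair from the RTT cells given above. The red blood cell list, at 5.44 for the knockout, and the cell cycle list, at −1.17 for the knockout and 1.61 in the yardstick, had 2 measured genes each. In RTT_ROSA26 against RTT the immediate-early genes had a median of −0.64 and the cytokines −0.68, below the 0.10 of all genes. The neutrophil markers (−0.65, none of 8 above 0), the other identity genes (−0.55, none of 14), the chemoattractant receptors (−0.55) and the NF-kB genes (−0.52) were lower in RTT_ROSA26 as well.

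Nos2, the inducible nitric oxide synthase, was highest in NTT, at 225, 50.5, 52.5 and 80.6 CPM.

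By size alone, the 10 genes furthest up in NTT against RTT were H2-Ab1, Klrk1, H2-Aa, H2-Eb1, Ctsk, Cd74, H2-Q6, Ccl5, H2-Q7 and Ly6a, and the 10 furthest down were Camp, Pf4, F13a1, Fcrls, Apoe, Fn1, Mt2, Mrc1, Ngp and Pmepa1. For the knockout against its control, those furthest up were Hbb-bs, Hba-a1, Hba-a2, Gbp2, Iigp1, Gbp4, Ifi47, Irgm1, Inhba and Selenom. Those furthest down were Saa3, Ctla2a, Hist1h2ae, Hist1h2ap, Pf4, Ctsk, Stab1, Ctla2b, Vcam1 and Gpr183. Several rested on 1 cell. The haemoglobin genes in the knockout had 95.3% to 98.7% of their UMIs in 1 cell, Camp and Ngp each came nearly wholly from 1 RTT cell as given above, and 1 cell held 88.5% of the Ctsk UMIs in NTT and 85.7% in RTT_ROSA26. Saa3, an acute-phase protein, was at 172, 448, 769.5 and 53.5 CPM, with 29.6% of the RTT_ROSA26 UMIs in 1 cell. Iigp1 had 32.7% and 29.5% of its RTT and RTT_ROSA26 UMIs in 1 cell each.

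Set beside other myeloid cells of the same tumours, the type II difference for the knockout was 2.18 in neutrophils, 0.32 in the monocytes named Monocyte_1, 0.94 in Infl_Mono monocytes, 1.60, 1.58 and 2.38 in the macrophages named TAM_Spp1, TAM_C1q and TAM_cycling, and 2.39 in cDC2 dendritic cells. For NTT against RTT it was 1.02, 0.21, 0.48, 0.72, 1.56, 1.95 and 1.37 in the same order, so that 3 of the other 6 types lay above the neutrophils. The difference between cell types could not be tested with 1 sample per group, and some groups were small, such as 54 Monocyte_1 cells in RTT_ROSA26 and, in NTT, 20 TAM_Spp1 and 12 TAM_C1q cells. Gbp2 in Monocyte_1 was at 848, 1223, 1399 and 1137 CPM, so in RTT_ROSA26 it was 1399 CPM in those monocytes and 139.6 CPM in neutrophils. Cd274 in Monocyte_1 was at 526, 253, 189 and 306 CPM, and in TAM_Spp1 at 222, 56.4, 29.5 and 92.7 CPM, below the neutrophil level in each sample for TAM_Spp1. In RTT_ROSA26 the neutrophil level of Cd274, 143 CPM, lay below that of Monocyte_1, and in the other 3 samples above it.

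The neutrophils of a sample summed to 1163582, 1505766, 2285771 and 1438531 UMIs, so that 1 UMI was worth under 1 CPM. Median mitochondrial shares were 1.17%, 3.13%, 2.25% and 1.90%. Among all cells, 98 barcode sequences occurred in 2 or more loads, 75 of them in 2 samples, and 4 neutrophils carried one, while no barcode was repeated within a load.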

How the data were processed

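CD45+ cells of 4 samples, 1 per group, were labelled with cell multiplexing oligonucleotides, pooled and loaded 3 times on a 10x Genomics chip for 3' libraries, so RNA free in the pool is common to all samples. The authors deposited whole-number UMI counts per gene and cell, made with Cell Ranger on mm10 and annotated with Seurat 4.3.0 per the submitters' notes, together with a table of cell types. They had kept cells above a minimum of genes and below limits on mitochondrial and ribosomal UMIs. In the deposited counts no cell had under 1001 genes or over 14.99% mitochondrial UMIs. Neutrophils were taken by the authors' annotation, and their UMIs were summed per sample and divided by the sum to give CPM (32285 genes, 33368 cells).

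Differences are log2 ratios of CPM + 10 over genes with a mean of at least 50 CPM, and past 2-fold means at least 1. Intervals are exact Poisson, conditional binomial or Clopper-Pearson at 95%. UMIs of 1 cell are not independent samples of a condition, and no p-value was computed. For shares of cells with a UMI, each cell was thinned to 2000 UMIs, which left out no neutrophil and 4 NK cells. Doublets were not called, and pairs from the same sample would not be removed by the sample labels. Genes were named as members of 38 lists, or as the 10 highest and the 10 lowest differences where the higher of both samples reached 100 CPM. The members, lists and comparisons were chosen with earlier results of these data known, and 5 list genes were absent from the matrix. Promoters came from RefSeq on GRCm38.p6. The ratio and interval code was tested on simulated data. Python 3.11.15 with numpy 2.4.6, scipy 1.17.1, pandas 2.3.3 and matplotlib 3.10.9 was used, and edgeR 4.0.16 in R 4.3.3 gave TMM factors only. Alternatives were another pseudocount, other minimums, TMM scaling, other totals, cell weights, cell filters and leaving out each load. Some results are not reported here.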

Additional observations from a re-analysis of the deposited data

How the results depend on the processing

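No paired analysis was possible because there is a single sample per group. No value below carries a test, and the cause of each shift was not tested. Settings chosen after seeing the data were the cells with at least 5% marker UMIs, the cells with 0.2% or less of macrophage, monocyte and class II UMIs each, each gene without its highest cell, and RTT in place of RTT_ROSA26.

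The shares with over 1500 genes and under 10% mitochondrial UMIs were 0.996% in RTT, 1.49% in RTT_ROSA26 and 0.770% in RTT_PTGS12KO, and with at least 5% marker UMIs 0.581%, 1.02%, 0.907% and 0.641% in NTT, RTT, RTT_ROSA26 and RTT_PTGS12KO. Leaving out each load gave 1.16% to 1.40%, 1.73% to 1.94%, 1.99% to 2.29% and 1.14% to 1.28%.

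The numbers of genes past 2-fold depended on the setting, and so did the number of genes tested. These were 2380 in the main setting, with CPM + 1 and against RTT. They were 4621 at 20 CPM, 14782 with no minimum and 2378 with TMM factors. There were 2092 in cells at or below 0.2%, 1768 in cells low in all 3, 2076 with at least 5% marker UMIs and 2796 without mitochondrial and ribosomal UMIs. Leaving out each load left 2359 to 2393. Counts from unlike totals are not comparable as they stand. For NTT against RTT, 148 were higher and 114 lower at 20 CPM and 197 and 148 with no minimum, 320 were higher in cells at or below 0.2% macrophage UMIs, and 356 lower in cells low in all 3 kinds of RNA. For the knockout, 196 were higher and 144 lower with no minimum, 97 lower at 20 CPM, 195 higher and 94 lower in cells at or below 0.2%, 75 lower with at least 5% marker UMIs, 210 lower in cells low in all 3, and 60 higher against RTT. For RTT_ROSA26 against RTT, 14 were higher and 73 lower with TMM factors, 63 lower with CPM + 1, and 37 higher without mitochondrial and ribosomal UMIs. There were 67 higher and 64 lower in cells at or below 0.2%, 52 higher at 20 CPM, 95 and 69 with no minimum, 40 higher with at least 5% marker UMIs, and 63 and 80 in cells low in all 3. Leaving out each load gave 88 to 105 higher and 70 to 79 lower for NTT, 124 to 143 and 40 to 55 for the knockout, and 28 to 40 and 48 to 54 for the yardstick. With TMM factors the knockout had 167 genes higher and 31 lower, against 122 and 43 without, and the yardstick 14 and 73, against 22 and 41. The median over all genes was then 0.09 in place of −0.07 for the knockout and −0.05 in place of 0.10 for the yardstick.

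The list medians kept their direction in the interferon and class I lists under all settings tried. For NTT, type I was 0.57 in cells at or below 0.2% and 1.11 in cells low in all 3, and class I was 0.45 in the latter. Type II was 0.84 with cells weighted equally, 1.23 with the stricter cell filter, 0.79 at or below 0.2%, 0.63 with at least 5% marker UMIs and 0.33 in cells low in all 3. For the knockout, type I was 1.42 with CPM + 1, 1.48 with TMM, 1.67 with cells weighted equally, 1.09 with the stricter filter, 1.55 at or below 0.2%, 1.25 with no minimum, 1.60 with at least 5% marker UMIs, 1.77 in cells low in all 3, 1.38 without the highest cell and 0.66 against RTT. Type II was 2.59 with CPM + 1, 2.62 with cells weighted equally, 2.53 at or below 0.2%, 2.56 in cells low in all 3 and 1.07 against RTT. Class I was 1.54 with TMM, 1.79 with cells weighted equally, 1.21 with the stricter filter, 1.65 at or below 0.2%, 1.78 with at least 5% marker UMIs, 1.58 in cells low in all 3 and 0.93 against RTT. For the yardstick, type II was −1.62 in cells low in all 3, and class I was −0.62 with TMM, −0.70 with cells weighted equally, −0.75 at or below 0.2% and −0.82 in cells low in all 3. Leaving out each load gave 0.86 to 0.92, 1.31 to 1.37 and −0.78 to −0.56 for type I in the 3 comparisons, 0.89 to 1.13, 2.12 to 2.29 and −1.37 to −0.92 for type II, and 1.15 to 1.29, 1.32 to 1.38 and −0.52 to −0.41 for class I.

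Directions turned for the macrophage list (0.10) in NTT at or below 0.2% macrophage UMIs. In the knockout they turned for the class II list (−0.050 at or below 0.2% and −0.14 in cells low in all 3) and H2-Ab1 (−0.053 and −0.46). The macrophage value, and the class II values in cells low in all 3 (−0.14 and −0.46), come from cells filtered on those same genes and say nothing of the samples. For NTT, the interferon and class I values in cells low in all 3 rest on 8 NTT cells, kept by a filter on monocyte and class II RNA that was higher in NTT. They cannot decide how far those lists differ. In the yardstick Iigp1 ranged from −1.89 to 0.15 over the loads left out, turning without load 3, and was 1.11 with at least 5% marker UMIs. The limits are 1 sample per group, 106 to 146 cells per sample, a gene minimum that 98 of the neutrophils only just passed, and macrophage RNA in many of the cells.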
